A study of Mus musculus with 5 samples.

Results

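The TNF superfamily was examined in CD45- cells of tumors formed by B16-OVA, a transplanted mouse melanoma line that expresses ovalbumin. Its members on the NanoString panel were all endogenous probes whose name begins with Tnfsf or Tnfrsf, together with Tnf, Cd40, Cd40lg, Fasl and Cd27. This gave 29 of the 750 endogenous probes, 13 for ligands and 16 for receptors. There were 2 samples from tumors of Prdm1fl/flFoxP3YFP-Cre mice (KO) and 3 from tumors of FoxP3YFP-Cre mice (WT), all on the C57BL/6 strain and 5 to 10 weeks old. All mice received NP-OVA at days 0 and 7, in complete and then incomplete Freund's adjuvant, and no tumor taken for sorting exceeded 1.5 cm3. Cre is driven from the Foxp3 locus, so that KO mice lose Prdm1, which encodes the transcription factor Blimp1, in Foxp3+ regulatory T (Treg) cells, which are CD45+ and lie outside the sorted fraction.

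Ligands of this family are mostly trimeric membrane proteins that are also shed, and their receptors carry cysteine-rich repeats outside the cell. Some receptors, such as TNF receptor 1, hold a death domain inside the cell and can start caspase activation, whereas others bind TRAF adaptors and lead to NF-κB and MAP kinase signaling. Costimulatory members such as 4-1BB, OX40, GITR, CD27 and CD40 are known mainly from lymphocytes and antigen-presenting cells, while TNF receptor 1, Fn14 and the TRAIL receptor are made by many epithelial, stromal and tumor cells.

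Endogenous counts summed to 450207 and 461822 in KO 1 and 2 and to 369515 to 423472 in the WT samples. A probe was taken as above background when its raw count exceeded the mean plus 2 SD of the 8 negative probes of the same sample, a level of 14.8 and 17.7 counts in KO and 13.1 to 14.6 counts in WT. Normalized counts are raw counts divided by a relative factor from the geometric mean of 20 housekeeping probes. Ptprc, which encodes CD45, had 3 and 1 raw counts in KO and 1 to 4 in WT, and Prdm1 had 6 and 4 in KO and 3 to 10 in WT, all below background, so that Prdm1 does not check the genotype in cells that exclude Treg cells. Of 9 melanocyte genes listed, the panel held Mcam and S100b, both above background in all 5 samples, so the label of tumor cells rests on these 2 genes here. By mean Mcam was higher in KO (0.58 on the log2 scale, unadjusted p by edgeR = 0.00299) and S100b lower (−0.13, unadjusted p by edgeR = 0.253). Neither passed the adjusted threshold given below, and 6.23% of all tested probes had an unadjusted p under 0.05. Of the fibroblast genes on the panel 5 of 6, and of the endothelial genes 2 of 8, were also above background in at least 2 samples. The labels name samples only, while the study's legends count them as mice, and the p-values reflect how much these samples vary. In sorted bulk RNA, fewer cells of a type and less RNA per cell cannot be told apart.

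Promoter sequence is shown for the members on which the results below turn, namely Tnfrsf9, the only tested member whose KO and WT samples did not overlap, and Tnfsf10 and Tnfrsf14, whose levels spread most widely between samples. Each stretch is the 250 bases before a RefSeq transcription start, written 5′ to 3′ on the gene's strand in lower case, with matches in capitals to the NF-κB consensus, to the AP-1 motif TGANTCA or to the core of the interferon-stimulated response element, 2 GAAA repeats with 2 bases between them, on either strand. RefSeq lists 2 starts for Tnfrsf9, and which of them gave the counts below is unknown.
Tnfrsf9, upstream start, GRCm38.p6 chr4:150919905-150920154, plus strand: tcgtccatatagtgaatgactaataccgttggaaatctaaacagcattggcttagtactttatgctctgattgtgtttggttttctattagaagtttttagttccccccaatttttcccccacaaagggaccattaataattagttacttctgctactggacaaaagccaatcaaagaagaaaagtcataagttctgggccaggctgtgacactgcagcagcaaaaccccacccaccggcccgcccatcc
Tnfrsf9, downstream start, GRCm38.p6 chr4:150927749-150927998, plus strand: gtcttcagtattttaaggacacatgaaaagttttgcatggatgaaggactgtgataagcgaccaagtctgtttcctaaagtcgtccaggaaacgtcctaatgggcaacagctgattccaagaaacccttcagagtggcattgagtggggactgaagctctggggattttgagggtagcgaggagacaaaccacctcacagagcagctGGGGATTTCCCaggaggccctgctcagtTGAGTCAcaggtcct
Tnfrsf14, GRCm38.p6 chr4:154928078-154928327, minus strand: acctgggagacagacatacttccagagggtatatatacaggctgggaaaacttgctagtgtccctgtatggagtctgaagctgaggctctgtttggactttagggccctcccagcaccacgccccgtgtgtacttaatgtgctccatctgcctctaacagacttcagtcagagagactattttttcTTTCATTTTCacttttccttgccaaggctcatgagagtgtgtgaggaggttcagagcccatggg
Tnfsf10, GRCm38.p6 chr3:27316827-27317076, plus strand: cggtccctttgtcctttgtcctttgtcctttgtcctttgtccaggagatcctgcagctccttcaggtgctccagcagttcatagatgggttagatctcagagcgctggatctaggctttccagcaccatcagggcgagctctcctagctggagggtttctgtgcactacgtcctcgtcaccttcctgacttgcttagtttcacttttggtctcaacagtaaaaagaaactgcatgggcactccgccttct

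The downstream Tnfrsf9 start had overlapping matches to the NF-κB consensus and a match to AP-1, and the upstream start had none. Tnfrsf14 had a match to the interferon element on the minus strand, 64 bases before its start at the left end of the match, and Tnfsf10 had a match to none of the 3 motifs. The NF-κB consensus occurred in 3.9%, the interferon element in 2.98% and AP-1 in 6.75% of 32851 RefSeq promoter stretches of this length. A match describes these letters and is not a measured binding site. Of the 9 members above background in at least 2 samples, 6 had a promoter in the table used here.

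Most of the family lay at the level of the negative probes. Of the 29 members, 19 (65.5%) were never above background, against 302 of the 750 endogenous probes (40.3%). In single samples, 9 and 8 members were above background in KO 1 and 2, against 9, 8 and 10 members in WT 1, 2 and 3. The 19 undetected members had 1 to 14 raw counts in any sample, and differences between groups among them were not detectable at this depth.

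The undetected members included 9 ligands. Tnf, the founding cytokine of the family, had 4 and 3 raw counts in KO against 8, 5 and 8 in WT. Fasl, which encodes the death ligand of Fas, had 6 and 10 raw counts in KO against 5, 11 and 7 in WT, and Cd40lg, the helper signal of activated T cells, had 10 and 7 in KO against 11, 13 and 14 in WT. All of these values lay below the background level of their sample. Tnfsf4 (OX40 ligand), Tnfsf8 (CD30 ligand), Tnfsf11 (RANK ligand, which drives osteoclast formation), Tnfsf13 and Tnfsf13b (APRIL and BAFF, survival factors of B-lineage cells) and Tnfsf15 (TL1A, the ligand of DR3) had at most 8 raw counts. Tnfsf18, which encodes GITR ligand, was above background in WT 3 alone, with 20 raw counts there, 11 and 12 in KO, 9 in WT 1 and 13 in WT 2, and was therefore not tested.

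The 10 undetected receptors are known mainly from lymphocytes and myeloid cells. So is Tnfrsf9 (4-1BB), but it was above background in every sample. Cd40 had 3 and 8 raw counts in KO against 5, 5 and 2 in WT, and Cd27, the receptor of CD70, had 3 and 6 in KO against 6, 5 and 1 in WT. Tnfrsf4 (OX40), a costimulatory receptor of T cells, had 5 and 6 raw counts in KO against 9, 13 and 11 in WT. Tnfrsf18 (GITR), a receptor abundant on Treg cells, had 8 and 1 in KO against 5, 4 and 1 in WT, and Tnfrsf1b (TNF receptor 2) had 10 and 6 in KO against 3, 10 and 5 in WT. All of these counts lay below background. Tnfrsf8 (CD30), Tnfrsf11a (RANK), Tnfrsf13b, Tnfrsf13c and Tnfrsf17 (TACI, BAFF receptor and BCMA, the receptors of BAFF and APRIL) had at most 8 raw counts.

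**Figure D1:**
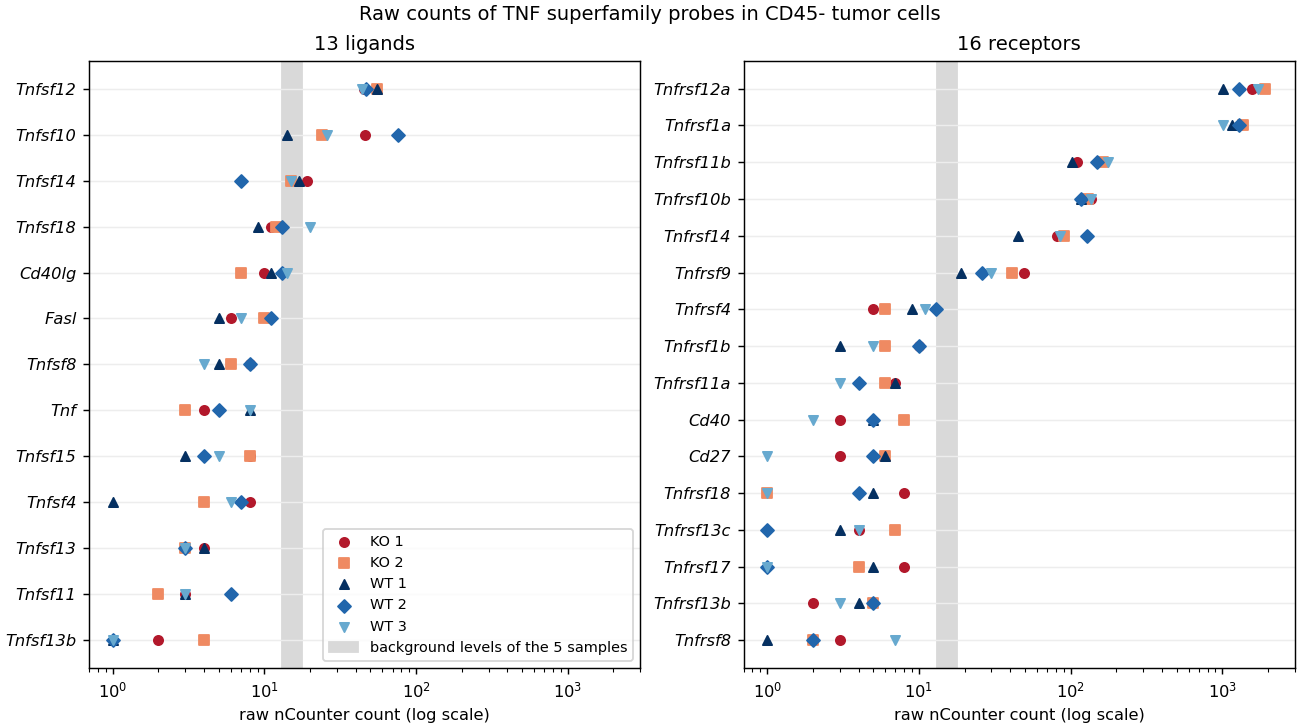
Raw nCounter counts (log scale) of 13 ligands and 16 receptors in KO 1 and 2 and WT 1, 2 and 3, 1 point per sample, with the range of the samples' background levels in gray. Tnfsf12 and 6 receptors lie above the band in every sample, and Tnfsf10, Tnfsf14 and Tnfsf18 in some samples only.

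The other 9 members, 3 ligands and 6 receptors, exceeded background in 2 or more samples and entered the test, 31% of the family against 53.5% of all endogenous probes. Of these, 8 were above background in all 5 samples. None differed between KO and WT at an adjusted p of 0.05 by edgeR's quasi-likelihood test, adjusted over 401 probes, where 0% of all tested probes passed. At an unadjusted p under 0.05 there were 0 of 9 members against 6.23% of all tested probes (2.74% higher and 3.49% lower in KO, 11 and 14 probes, or 24 and 4 with scaling on positive controls only). Under other settings 1 member passed that threshold, against 6.48% of tested probes with TMM, 7.48% with DESeq2 size factors or the total count, 6.98% with positive controls only, 7.23% with background subtracted, 6.23% with limma, 6.73% on the deposited signal and 3.99% with replicate number as a block. Without the filter it was 2 of 29, against 5.2% of 750. No member passed it with the DESeq2 Wald test (7.98%), the methods' test on log values (6.73%), without the housekeeping probe G6pdx (5.74%), or with filters on all 5 samples (7.38%) or on a mean raw count of 50 (7.59%). By mean, 4 members were higher and 5 lower in KO. The median of their log2 fold changes was −0.07, as it was over all 401 tested probes. KO and WT samples did not overlap in 1 of 9 members, Tnfrsf9, and in 23.7% of all tested probes (KO above in 8.98%, KO below in 14.7%). Among all 750 probes without the filter, 24.5% did not overlap.

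Tnfrsf9, which encodes the costimulatory receptor 4-1BB, had the largest difference of the tested members in size. It had 42.8 and 40.3 normalized counts in KO against 19.5, 27.7 and 32 in WT. Each KO sample lay above every WT sample, as in 8.98% of tested probes, although WT 3 was closer to the KO samples than to WT 1. The mean was 41.5 ± 1.72 in KO (SD, n = 2) and 26.4 ± 6.34 in WT (SD, n = 3), a KO over WT log2 difference of 0.66 (SE 0.27, 95% interval −0.04 to 1.36, adjusted p by edgeR = 0.71, unadjusted p = 0.0608). Raw counts were 49 and 41 in KO, with exact Poisson 95% intervals of 36.3 to 64.8 and 29.4 to 55.6, against 19, 26 and 30 in WT, where the interval of WT 3 was 20.2 to 42.8. These intervals cover counting error only, and those of both KO samples overlap that of WT 3. The unadjusted p of Tnfrsf9 passed 0.05 under other scalings (0.036 with TMM, 0.0296 with positive controls only), and the adjusted p did not.

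4-1BB is known mainly from activated T and NK cells, so markers of T and NK cells and of myeloid cells are given beside Tnfrsf9. Of 17 T and NK cell markers, 13 were never above background, and their summed level was 109 and 120 normalized counts in KO against 96 to 128 in WT. Only Cd28 and Cd3d passed the filter, both with overlapping groups. Cd28 had 22 and 25 raw counts in KO against 23, 15 and 20 in WT (0.10 on the log2 scale), and Cd3d had 15 and 12 in KO against 16, 21 and 9 in WT (−0.37). Among 13 myeloid markers 7 were never above background, and the summed level was 351 and 374 normalized counts in KO against 237 to 357 in WT. Most of that sum was Cd68, a lysosomal protein of macrophages, which had 243 and 245 in KO against 141, 210 and 128 in WT. Of the 4 myeloid markers tested, Cd68 (0.61 on the log2 scale) and Lyz2 (0.37) were higher and Fcgr1 (−0.48) and S100a8 (−0.15) lower in KO by mean. None passed the threshold, and Cd68 alone had both KO samples above the WT samples, as in 8.98% of all tested probes. The part of these markers in the Tnfrsf9 values was not tested.

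The other costimulatory receptor above background was Tnfrsf14, which encodes HVEM, the receptor of LIGHT and a binding partner of the inhibitory receptor BTLA. It had 70.7 and 89.5 normalized counts in KO against 46.2, 137 and 90.7 in WT. WT 1 was the lowest and WT 2 the highest of the 5 samples, with both KO samples between them. The log2 fold change was −0.19 (SE 0.48, 95% interval −1.41 to 1.03, adjusted p by edgeR = 0.948), and it was 0.23 without WT 2 and −0.51 without WT 1.

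Tnfrsf12a encodes Fn14, the receptor of TWEAK, a small receptor that is induced in many injured tissues and tumors. It had 1369 and 1875 normalized counts in KO against 1039, 1366 and 1826 in WT, so that the groups overlapped over most of their range. The mean was 1622 ± 358 in KO (SD, n = 2) and 1410 ± 396 in WT (SD, n = 3), a KO over WT log2 difference of 0.2 (SE 0.28, 95% interval −0.51 to 0.92, adjusted p by edgeR = 0.884). Without KO 2 it was −0.04. Its ligand Tnfsf12, which encodes TWEAK, had 39.3 and 54.1 in KO against 56.5, 50 and 46.9 in WT, a KO over WT log2 difference of −0.13 (SE 0.24, 95% interval −0.75 to 0.48). Tnfsf13, the neighboring gene, was below background in every sample.

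Among the members as defined here, the death domain receptors were Tnfrsf1a and Tnfrsf10b, and both were among the most even members. The death receptor Fas lies outside that definition and is given further below. Tnfrsf1a, the receptor that carries most of the inflammatory response to TNF, had 1145 and 1344 normalized counts in KO against 1183, 1378 and 1084 in WT. Both KO samples lay within the WT range. The log2 fold change was 0.03 (SE 0.15, 95% interval −0.36 to 0.42, adjusted p by edgeR = 0.978), and the interval leaves out a change of 1 on the log2 scale in either direction. Tnfrsf10b, the mouse death receptor for TRAIL, had 120 and 128 in KO against 120, 124 and 145 in WT, a KO over WT log2 difference of −0.07 (SE 0.18, 95% interval −0.52 to 0.38, adjusted p by edgeR = 0.948). Its highest sample was 1.21 times its lowest, the smallest such ratio among tested members.

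Tnfsf10, which encodes TRAIL, the death-inducing ligand of Tnfrsf10b, was the most uneven member. It had 40.1 and 23.6 normalized counts in KO against 14.4, 80.8 and 27.7 in WT, with WT 1 the lowest and WT 2 the highest. The highest sample was 5.62 times the lowest, against a median ratio of 1.96 over the 9 tested members and 1.62 over all 401 tested probes, of which 3.99% had a larger ratio than Tnfsf10. In raw counts WT 1 had 14, close to its background level of 13.9, with an exact Poisson 95% interval of 7.65 to 23.5, and WT 2 had 76 with an interval of 59.9 to 95.1. These WT samples therefore differed by more than counting error. The log2 fold change of KO over WT was −0.35 (SE 0.77, 95% interval −2.32 to 1.61, adjusted p by edgeR = 0.934), and it was 0.61 without WT 2 and −0.79 without KO 1.

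TRAIL is known as an interferon-induced gene, so a list of interferon-stimulated genes is set beside it. The summed level of the 24 such genes on the panel was 20926 and 22331 normalized counts in KO against 21063, 45255 and 36433 in WT 1, 2 and 3. WT 2 was highest in this sum, in Tnfsf10 and in Tnfrsf14, and WT 1 was the lowest WT sample in all 3. Among all 401 tested probes, WT 2 was the highest of the 5 samples in 133 and WT 1 the lowest in 117. Between the KO samples the order differed, since KO 1 had the lower sum and the lower Tnfrsf14 count but the higher Tnfsf10 count. Of the 23 tested genes of that list, 22 were lower in KO by mean, 3 at an unadjusted p under 0.05 and 0 after adjustment, against 243 of 401 tested probes lower by mean and 3.49% lower at that p. The list's median was −0.83 on the log2 scale, and it was −0.49 without WT 2 and −1.23 without WT 1. The part of interferon signaling in either member was not tested.

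Tnfsf14, which encodes LIGHT, a ligand of HVEM and of the lymphotoxin β receptor, was barely above background. Its raw counts were 19 and 15 in KO against 17, 7 and 15 in WT, above background in KO 1, WT 1 and WT 3 only. It stood just inside the filter, and Tnfsf18, above background in 1 sample, stood just outside it. The log2 fold change of Tnfsf14 was 0.2 (SE 0.41, 95% interval −0.85 to 1.25), and it was −0.09 without WT 2. Tnfrsf11b, which encodes osteoprotegerin, a secreted decoy receptor that binds RANK ligand and TRAIL, had 96 and 161 in KO against 106, 158 and 188 in WT. KO 1 was the lowest of the 5 samples and KO 2 lay between WT 2 and WT 3, and the log2 fold change was −0.23 (SE 0.35, 95% interval −1.13 to 0.67, adjusted p by edgeR = 0.884).

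**Figure D2:**
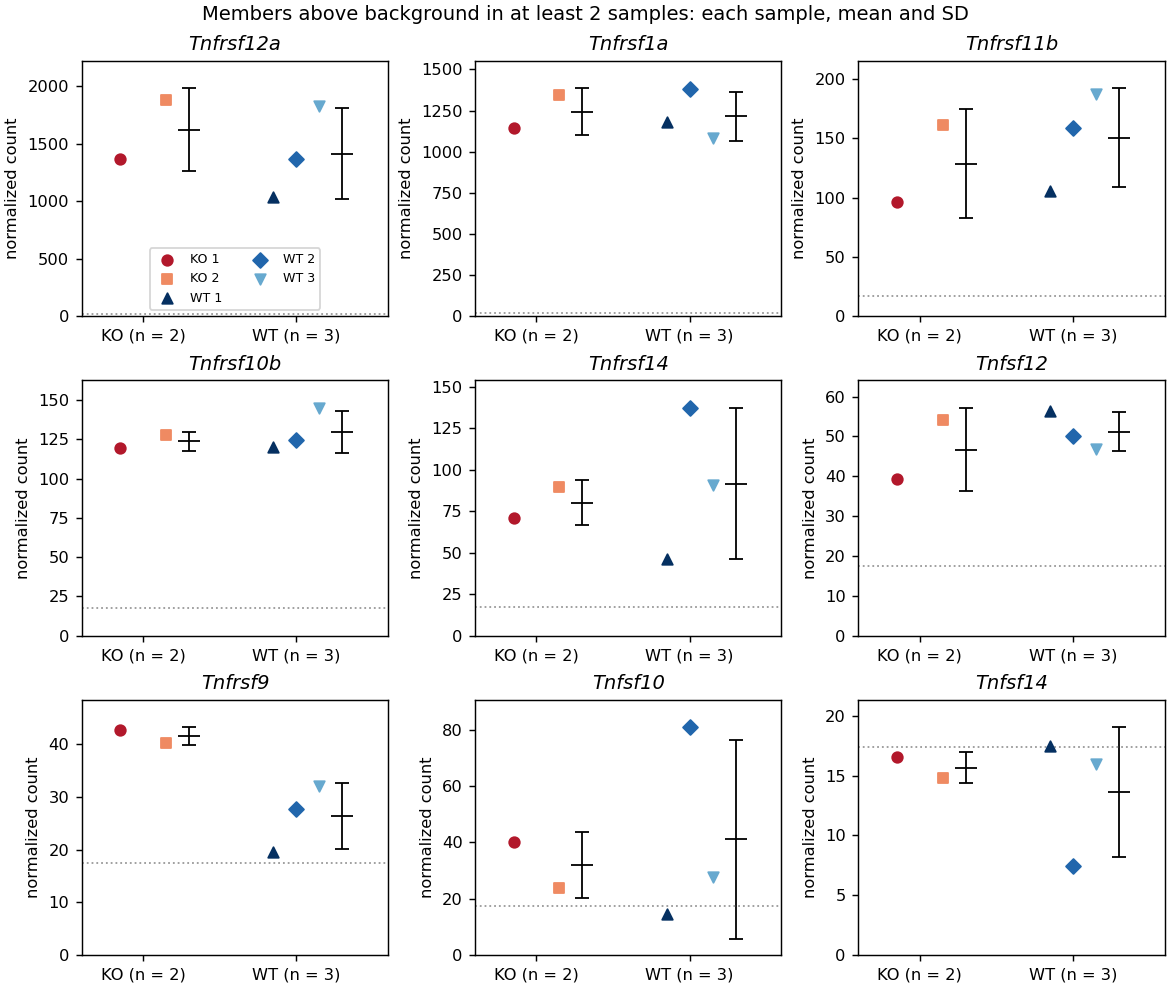
Normalized counts of the 9 tested members in each KO sample (n = 2) and WT sample (n = 3), with the group mean and SD drawn as black bars beside the points and the highest normalized background level as a dotted line. Only the Tnfrsf9 panel has every KO sample above every WT sample, while WT 1 and WT 2 are the extremes of Tnfrsf14 and Tnfsf10.

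**Figure D3:**
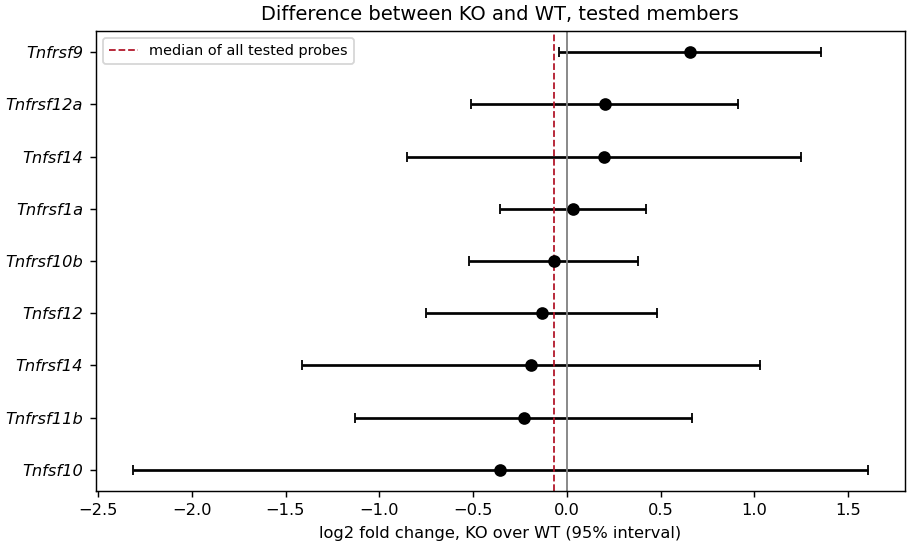
Log2 fold change of KO over WT for the 9 tested members, with 95% intervals from the edgeR fit and the median of all 401 tested probes as a dashed line. Every interval includes 0, and the widest belongs to Tnfsf10 (−2.32 to 1.61).

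Ligands were matched with their receptors in 21 known pairs. In 4 of these pairs both sides were above background in at least 2 samples, namely Tnfsf10 with Tnfrsf10b, Tnfsf12 with Tnfrsf12a, and Tnfsf14 with Tnfrsf14 and with Ltbr. The list left out Tnfsf10 with Tnfrsf11b, the decoy receptor that also binds TRAIL, and both of these were above background in all 5 samples. In 3 pairs only the receptor passed, as for Tnf with Tnfrsf1a, Fasl with Fas, and Tnfsf11 with Tnfrsf11b. In 11 pairs neither side was above background in any sample, among them Cd40lg with Cd40, Tnfsf4 with Tnfrsf4 and every pair of BAFF or APRIL. In the remaining pairs, Tnfsf9, the ligand of 4-1BB, and Tnfrsf25 (DR3), the receptor of Tnfsf15, had no probe on the panel. Tnfsf18 was above background in 1 sample and its receptor Tnfrsf18 in none.

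Superfamily genes with other names were examined as a list of 5 on the panel, of which Ltbr and Fas were tested. Ltbr, the lymphotoxin β receptor, had 956 and 984 normalized counts in KO against 957, 1068 and 1069 in WT, a KO over WT log2 difference of −0.09 (SE 0.11, adjusted p by edgeR = 0.884). Fas, the death receptor of Fas ligand, had 17 and 20 raw counts in KO against 10, 21 and 10 in WT, a KO over WT log2 difference of 0.26 (SE 0.44). Lta, Ltb and Cd70 were never above background.

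Downstream of the receptors, the adaptors, kinases and caspases on the panel were all above background, 18 of 18 tested. By mean 6 were higher and 12 lower in KO, their median on the log2 scale was −0.15, and 0 passed the adjusted threshold. Over all tested probes 158 were higher and 243 lower, and with scaling on positive controls only the list's median was 0.0033 and that of all tested probes 0.0739. At an unadjusted p under 0.05 there was 1 higher, Map3k1, a MAP kinase kinase kinase, with 357 and 318 normalized counts in KO against 235, 239 and 202 in WT. There was 1 lower, Traf2, the adaptor recruited by TNF receptors and by Fn14, HVEM and 4-1BB, with 318 and 294 in KO against 408, 428 and 483 in WT. Both had an adjusted p by edgeR = 0.487, and their KO and WT samples did not overlap, against 6.23% of all tested probes at that unadjusted p and 23.7% without overlap. Of the receptors named here for Traf2, Tnfrsf9 (0.66 on the log2 scale), Tnfrsf12a (0.2) and Tnfrsf1a (0.03) were higher in KO by mean, and Tnfrsf14 (−0.19) was lower. None passed the threshold, and all of these but Tnfrsf9 changed sign in a fit with 1 sample left out. Tnfrsf1b was below background in every sample. The part of any receptor in the Traf2 values was not tested.

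Of the 6 NF-κB subunits and inhibitors on the panel, all tested, 1 was higher and 5 lower in KO by mean, against 243 of 401 tested probes lower. The list's median on the log2 scale was −0.14, and 0 of the 6 passed the adjusted threshold. With scaling on positive controls only that median was −0.00043, against 0.0739 over all tested probes. With 1 sample left out the median over all tested probes ran from −0.12 without KO 2 to −0.04 without KO 1. The list's median was −0.07 without KO 1, −0.45 without KO 2, −0.23 without WT 1, −0.19 without WT 2 and −0.08 without WT 3. At an unadjusted p under 0.05 there were 2, both lower, against 3.49% of all tested probes, namely Relb and Nfkb2, the subunits of the noncanonical pathway that Fn14, the lymphotoxin β receptor and CD40 can engage. Relb had 131 and 143 normalized counts in KO against 255, 331 and 290 in WT, and Nfkb2 had 319 and 300 in KO against 463, 482 and 403 in WT. Of the receptors just named for that pathway, Tnfrsf12a and Ltbr were above background, and both had overlapping KO and WT samples. Other receptors that may engage the pathway were not examined for it, and the part of any receptor in the Relb and Nfkb2 values was not tested.

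The differences of single members rested on single samples in most cases. With each sample left out in turn, the log2 fold change of Tnfrsf9 stayed positive, from 0.48 without WT 1 to 0.82 without WT 3. That sign was fixed in advance, because both of its KO samples lay above every WT sample, as in 8.98% of all tested probes. The other 8 tested members, whose groups overlapped, each changed sign in at least 1 fit with a sample left out. The widest span was that of Tnfsf10, from −0.79 to 0.61. At an unadjusted p under 0.05, 1 member (Tnfrsf9) passed without WT 3 and 0 passed without each of the other samples. Among all tested probes the share was 3.99% without KO 1, 2.49% without KO 2, 12.5% without WT 1, 5.49% without WT 2 and 3.99% without WT 3.

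**Figure D4:**
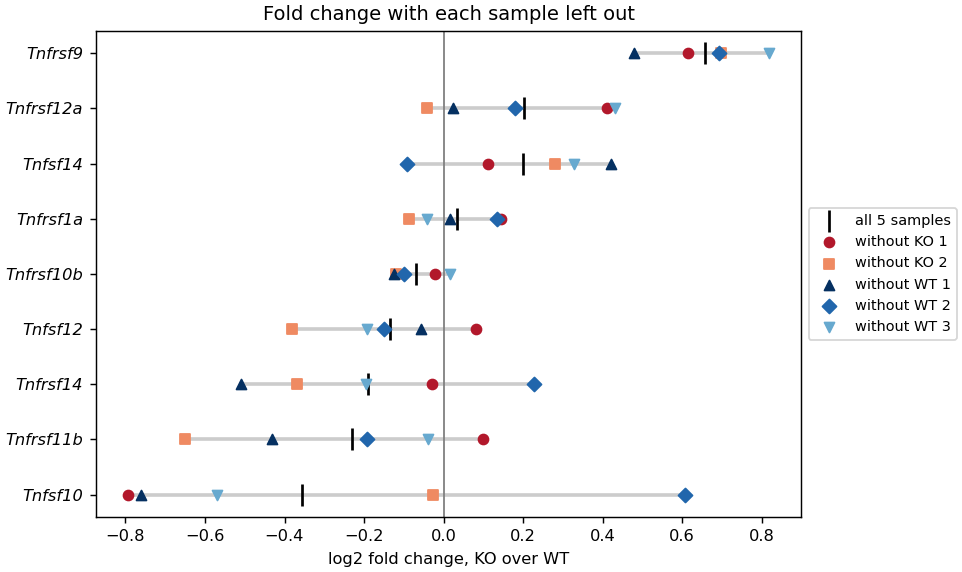
Log2 fold change of KO over WT for each tested member with all 5 samples (black bar) and with each sample left out in turn (colored symbols). Tnfrsf9, whose KO and WT samples do not overlap, stays between 0.48 and 0.82, and the other 8 members cross 0.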

How the data were processed

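RNA of CD45- tumor cells (100 ng per sample) from 2 KO and 3 WT samples was hybridized to the PanCancer Immune panel for mouse and counted on the nCounter. The authors deposited raw barcode counts of 784 probes (750 endogenous, 20 housekeeping, 8 negative and 6 positive controls), with nothing subtracted or scaled. The authors also deposited a normalized signal, made with nSolver 4.0 per the methods, which equals the raw count times 1 factor per sample (0.842 and 0.959 in KO, 0.981 to 1.04 in WT) with values under 15 set to 15, and which was used as an alternative only. A column of the share of samples above a threshold was not used, because its steps are finer than 5 samples allow.

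Groups came from sample titles and columns from the sample codes in the second header line. Relative housekeeping factors were 1.15 and 1.02 in KO and 0.937 to 0.974 in WT. Probes above background in at least 2 samples, 401 of 750, were tested on raw counts with edgeR 4.0.16 (genotype as the only term, R 4.3.3), with Benjamini-Hochberg adjustment over all 401. The SE is the fold change divided by the square root of the quasi-likelihood F. The fit was tested on simulated data. limma 3.58.1 and DESeq2 1.42.0 served as alternatives. Each probe captures its target with its own efficiency, so levels of different genes were not ranked. Members and lists were chosen with earlier results of these data known. Every tested member is named with its values, the others by raw counts, and other lists by up to 3 genes of smallest p. All 29 symbols matched RefSeq (GRCm38.p6), and promoters are from RefSeq.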

Additional observations from a re-analysis of the deposited data

How the results depend on the processing

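No member passed the adjusted threshold under any of the 19 alternatives, and over all probes only the DESeq2 Wald test called any (3 genes). At an unadjusted p under 0.05, 1 member was called with TMM, DESeq2 size factors, positive controls only, total count, background subtraction, limma, the deposited signal (Tnfrsf9 in each) and the replicate block (Tnfrsf12a), and 2 with no filter, Tnf and Tnfrsf4, whose counts never exceeded background. Over all probes this count was 39 with no filter, 16 with the replicate block and 10 to 50 with 1 sample left out, and for members it was 0 to 1 with 1 sample left out. Members whose groups did not overlap numbered 2 with positive controls only, 7 with no filter, 0 when mean raw counts under 50 were left out and 1 to 4 with 1 sample left out. With the mean of the negative probes as background, 15 members lay above it in at least 2 samples in place of 9. There were 8 with the mean plus 3 SD and 11 with the highest negative probe. The share over all endogenous probes was not computed at these levels. Positive-control scaling moved the median of all probes to 0.0739, against −0.069 in the main fit.

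Fold changes that changed sign were Tnfrsf10b (0.0719 with positive controls only and 0.0161 with the replicate block), Tnfrsf1a (−0.042 with the replicate block) and Tnfsf14 (−0.0042 on the deposited signal). With 1 sample left out they ranged from −0.124 to 0.0166 for Tnfrsf10b, −0.0858 to 0.145 for Tnfrsf1a, −0.65 to 0.0989 for Tnfrsf11b, −0.0428 to 0.432 for Tnfrsf12a, −0.51 to 0.227 for Tnfrsf14, −0.793 to 0.608 for Tnfsf10, −0.381 to 0.081 for Tnfsf12 and −0.093 to 0.421 for Tnfsf14. Deviations of same-numbered samples correlated at 0.295 and 0.00029, which with 2 KO samples cannot tell whether numbers pair the samples. Scaling without the housekeeping probe G6pdx was added after seeing the data and changed none of these calls or signs. With 1 KO sample left out, the lone one is taken to vary as WT does. Causes were not tested. Low counts near background limit Tnfsf14, Tnfsf10 and Tnfrsf9 most.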
